A study of Mus musculus with 4 samples.

Results

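The genes described here are 38 interferon-induced GTPases and antiviral genes, taken by name from the count tables of a Drop-seq study of mouse cortex, which together list 27487 gene symbols. The 38 were chosen with earlier results of these data known, so that shares of members beside those of all genes are no independent comparison. They comprise 8 guanylate-binding proteins, 8 immunity-related GTPases, 4 transcription factors of the interferon response, 4 Ifit and Ifitm antiviral proteins, Isg15 and its protease, 11 other antiviral effectors and sensors, and 1 chemokine. Drop-seq captures single cells in droplets with barcoded beads and counts unique molecular identifiers (UMIs), 1 for each captured transcript. Tg2576 mice (B6;SJL-Tg(APPSWE)2576Kha) are heterozygous for a human APP transgene with the Swedish mutation, driven by a prion protein promoter, and were compared with wild-type littermates at 24 weeks of age. There were 4 libraries, 1 for each sex and genotype, and the cortices of 9 mice were pooled in each, so that values for single mice were not analysed here and a difference between groups cannot be told apart from a difference between libraries. All mice were perfused before the cortex was dissociated, and the comparison was made at an age before the pathology, with sex as a factor.

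Interferons are secreted when a cell senses viral or displaced nucleic acid, and they act through receptors that activate JAK kinases and, through them, transcription factors. Type I interferons act mainly through the interferon-stimulated response element (ISRE), and type II interferon, made by T and NK cells, acts mainly through the gamma-activated site (GAS). Guanylate-binding proteins and immunity-related GTPases assemble on the membranes of intracellular pathogens and are known as strong targets of type II interferon, whereas Isg15, Ifit1 and Rsad2 are widely used markers of type I interferon. In the brain, endothelial cells line the vessels and carry receptors for both types.

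Each library table held 3000 barcodes with between 1926857 and 2294296 UMIs, and between 1010 and 1532 cells per library were kept, 4831 in all. The mitochondrial share of all UMIs ranged from 7.87% in the male Tg2576 to 17.2% in the female Tg2576 library. Between 2 and 4 barcodes of kept cells were shared by any 2 libraries. UMIs of the Y-linked *Ddx3y* numbered 252 and 238 in the male libraries and 0 in each female one. Levels are given as CPM, the UMIs of a gene divided by all UMIs of the same cells and scaled to a fixed total. *App* was at 889, 1575, 1178 and 1567 CPM over all cells of the female wild-type, female Tg2576, male wild-type and male Tg2576 libraries, and this order of libraries is kept below. Reads of the transgene and of mouse *App* were not separated, so that *App* is only a weak check of the genotype labels.

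Endothelial cells held most of the UMIs of these genes. They formed 1 cluster of 960 cells (148, 304, 198 and 310), in which 16 of 16 endothelial markers, among them *Cldn5*, *Flt1* and *Pecam1*, were at least 2-fold higher than in other cells. They were 19.9% of all cells and held 19.6% of all UMIs, but 62.2% of the 14274 UMIs of the 38 members, 72.2% of those of the 16 GTPases and 55.9% of those of the 22 other members. Microglia, with 1861 cells, held 22.7% of the members' UMIs, and mural cells, the pericytes and smooth muscle cells of the vessel wall, held 6.31% with 162 cells. The cells were clustered without the members among the variable genes.

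The promoters of the members are described here, and their part in the differences between libraries was not tested. Promoters (250 bases before to 50 bases after the start site) were taken from RefSeq on GRCm38.p6, the assembly that mm10 represents, for the 29 of 38 members with an entry. The GTPases without an entry were *Gbp4*, *Gbp6*, *Gbp8*, *Gbp9*, *Iigp1* and *Gm4951*. The ISRE core was searched as GAAA and GAAA with any 2 bases between them, and the GAS core as TTCNNNGAA, on both strands, and matches of one may overlap those of the other. Matches were counted by gene, over all promoters of a gene. An ISRE match stood in 20 of the 29 members and in 10 of the 10 GTPases with an entry, against 3.99% of all 27025 genes. A GAS match stood in 12 of the 29 members and 7 of the 10 GTPases, against 9.55% of all genes. Both stood in 1 promoter in 9 of the 29 members, 7 of them GTPases, against 0.540% of all genes. A match is a description of the letters and not a bound site. The members were listed as interferon-induced genes, so that a high share of matches is no separate finding. The following 60-base windows, all upstream of the start site and 5′ to 3′ on the strand of the gene, show the ISRE match nearest to the start site of the 10 GTPases and, for comparison, of 2 markers of type I interferon, with the match in capitals.
Gbp2 (chr3:142620579-142620638, + strand): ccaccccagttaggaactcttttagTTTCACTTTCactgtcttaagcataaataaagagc
Gbp3 (chr3:142559980-142560039, + strand): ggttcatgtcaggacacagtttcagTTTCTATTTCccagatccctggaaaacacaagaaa
Gbp5 (chr3:142496744-142496803, + strand): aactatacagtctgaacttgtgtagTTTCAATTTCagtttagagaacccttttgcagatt
Gbp7 (chr3:142530258-142530317, + strand): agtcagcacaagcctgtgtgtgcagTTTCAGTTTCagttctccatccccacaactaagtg
Igtp (chr11:58199496-58199555, + strand): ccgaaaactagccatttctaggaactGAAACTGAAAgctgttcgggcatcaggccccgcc
Irgm1 (chr11:48871421-48871480, - strand): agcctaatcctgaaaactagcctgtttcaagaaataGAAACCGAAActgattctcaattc
Irgm2 (chr11:58214888-58214947, + strand): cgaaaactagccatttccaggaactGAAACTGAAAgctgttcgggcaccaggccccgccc
Tgtp1 (chr11:48992289-48992348, - strand): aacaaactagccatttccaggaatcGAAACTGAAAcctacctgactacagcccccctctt
Tgtp2 (chr11:49064248-49064307, - strand): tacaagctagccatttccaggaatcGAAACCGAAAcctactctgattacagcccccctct
Gm12250 (chr11:58183772-58183831, + strand): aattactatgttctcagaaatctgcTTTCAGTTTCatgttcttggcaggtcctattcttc
Isg15 (chr4:156200850-156200909, - strand): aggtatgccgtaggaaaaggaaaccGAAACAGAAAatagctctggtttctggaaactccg
Ifit1 (chr19:34640779-34640838, + strand): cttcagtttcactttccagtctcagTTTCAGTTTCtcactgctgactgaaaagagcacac
In *Irf1*, whose promoter held no ISRE match, the capitals mark a GAS match.
Irf1 (chr11:53769899-53769958, + strand): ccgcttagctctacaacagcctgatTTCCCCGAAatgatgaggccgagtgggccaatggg

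In some immunity-related GTPases a GAS match stood just upstream of an ISRE match. In *Igtp* a GAS match began at position -45 from the start site and the ISRE match at -34, and the same pair stood at -75 and -64 in *Irgm2*, at -88 and -77 in *Tgtp1*, at -81 and -70 in *Tgtp2* and at -61 and -46 in *Gm12250*. The genes are also neighbours in the genome. *Gbp2*, *Gbp3*, *Gbp5* and *Gbp7* lie within 141 kb (chr3:142496934-142638008), *Gbp4*, *Gbp6*, *Gbp8* and *Gbp9* within 283 kb (chr5:105012513-105295871), *Gm12250*, *Igtp* and *Irgm2* within 38.9 kb (chr11:58183843-58222783), and *Irgm1*, *Tgtp1* and *Tgtp2* within 199 kb of the same chromosome (chr11:48865245-49064212). Such copies share stretches of sequence, so that reads of *Tgtp1* and *Tgtp2*, and of the *Gbp* genes of chromosome 5, may have been split between them or lost.

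Of the 38 members, 37 had at least 1 UMI in the kept cells. *Cxcl9*, a chemokine that attracts T cells, had 2 UMIs in all barcodes of the male wild-type library, none of them in a kept cell, and was not listed in the other tables. *Tgtp1* was not listed in the female wild-type table and counted as 0 there. The 35 members with at least 20 UMIs in endothelial cells or in microglia are described by their level in each cell type and library. *Gm4951*, an immunity-related GTPase, had 15 UMIs in endothelial cells and 16 in microglia, and *Ifi207*, a DNA-sensing protein of the p200 family, had 36 UMIs in all, 1 of them in an endothelial cell. Among endothelial cells, mural cells, microglia, astrocytes and oligodendrocytes, the pooled level was highest in endothelial cells for 33 of the 37 members, where 19.2% of all genes with a UMI in these types were. For *Ifi207* this rests on 1 UMI. With all other named types and the unnamed cells included, it was highest in endothelial cells for 28 of the 37.

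**Figure D1:**
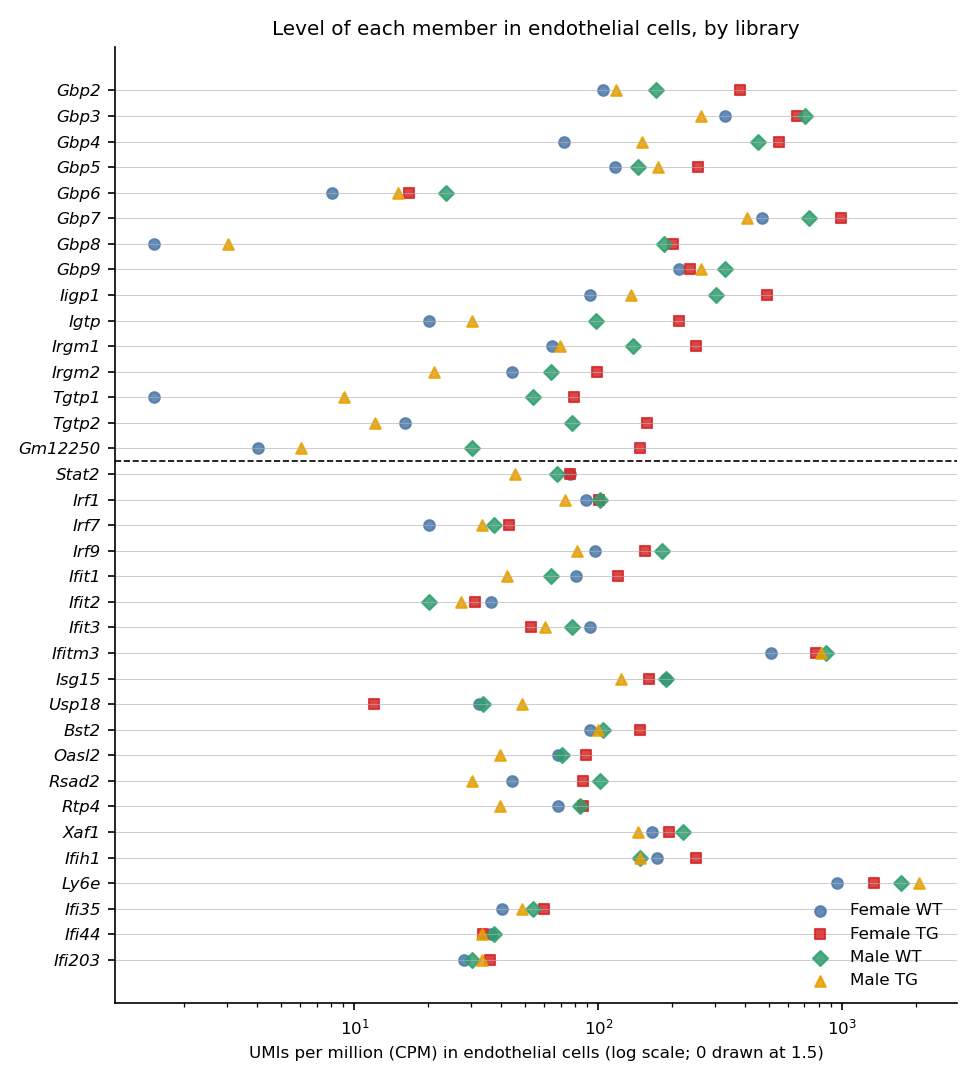
Level of each of the 35 members in endothelial cells (CPM, log axis, 1 point per library), with the GTPases above the dashed line. For 13 of the 15 GTPases shown the female Tg2576 and male wild-type points both lie above the points of the other libraries, an order held by 13% of all genes with at least 20 UMIs, as for *Gbp8* at 202 and 186 against 0 and 3.03.

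The guanylate-binding proteins had the most UMIs of the GTPases. *Gbp7* stood at 468, 986, 729.9 and 406 CPM in endothelial cells and *Gbp3* at 331, 655, 706 and 264. Levels of *Gbp4* were 72.6, 549.6, 449 and 151, those of *Gbp2* were 105, 382, 172 and 118 and those of *Gbp5* were 117, 257, 145 and 176. In all of these genes except *Gbp5* the female Tg2576 and the male wild-type library were higher than the others. *Gbp8* showed the widest range, with 0, 84, 55 and 1 UMIs, or 0, 202, 186 and 3.03 CPM, so that 1 of its UMIs came from outside the female Tg2576 and male wild-type libraries. *Gbp9* was the most even GTPase of the family, at 214, 238, 331 and 264 CPM. *Gbp6* was rare, with 2, 7, 7 and 5 UMIs.

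The immunity-related GTPases followed the same order of libraries. *Iigp1*, the GTPase that coats the vacuoles of *Toxoplasma*, stood at 92.8, 489.6, 304 and 136 CPM, and *Igtp*, also called Irgm3, at 20.2, 214, 98.0 and 30.3. The regulatory *Irgm1* stood at 64.5, 252, 139 and 69.7 and *Irgm2* at 44.4, 98.4, 64.2 and 21.2. *Tgtp2* had 16.1, 158, 77.7 and 12.1, its neighbour *Tgtp1* 0, 79.2, 54.1 and 9.09, and *Gm12250* 4.03, 149, 30.4 and 6.06 CPM. For 5 of these 7 genes the lowest level was in the female wild-type library, and for *Irgm2* and *Tgtp2* it was in the male Tg2576 library.

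*Irf1*, a factor induced by interferon type II, stood at 88.7, 101, 101 and 72.7 CPM in endothelial cells, *Stat2* at 76.6, 76.8, 67.6 and 45.4 and its partner *Irf9* at 96.8, 156, 182 and 81.8. *Irf7*, which amplifies type I interferon, stood at 20.2, 43.2, 37.2 and 33.3. *Ifitm3*, a membrane protein that blocks viral entry, stood at 508, 782, 858 and 815, and *Ifit1*, which binds viral RNA, at 80.7, 120.0, 64.2 and 42.4. *Ifit3* had 92.8, 52.8, 77.7 and 60.6 and *Ifit2* 36.3, 31.2, 20.3 and 27.3 CPM. Levels of *Isg15*, a ubiquitin-like modifier, were 189.6, 161, 189 and 124, and those of *Usp18*, which removes it, were 32.3, 12.0, 33.8 and 48.5. The female Tg2576 and male wild-type libraries were both above the others in 9 of the 20 other members with at least 20 UMIs in endothelial cells and in 13 of 15 GTPases, where 13% of all genes with as many UMIs had this order. No test was made of it, and the members were chosen with earlier results of these data known.

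Among the remaining effectors, *Ly6e*, a surface protein that restricts coronavirus entry, had the most UMIs of all members, at 956, 1344, 1747 and 2059.6 CPM, lowest in the female wild-type and highest in the male Tg2576 library. *Ifih1*, the sensor of long double-stranded RNA, stood at 173, 252, 149 and 148, and *Xaf1*, an apoptosis regulator, at 165, 194, 223 and 145. *Bst2*, which tethers budding viruses, had 92.8, 149, 105 and 100, and *Rsad2*, the antiviral enzyme viperin, 44.4, 86.4, 101 and 30.3 CPM. *Oasl2* had 68.6, 88.8, 71.0 and 39.4 and *Rtp4* 68.6, 86.4, 84.5 and 39.4. The levels of *Ifi35* (40.3, 60.0, 54.1 and 48.5), *Ifi44* (36.3, 33.6, 37.2 and 33.3) and *Ifi203* (28.2, 36.0, 30.4 and 33.3) differed between libraries by less than a factor of 2.

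The next question was whether the members were higher in endothelial cells than in other cells of the cortex, with the 4 libraries as replicates. UMIs were summed per cell type and library, and 6811 genes passed the filter on low counts, among them 24 members. Since most members are rare outside endothelial cells, they passed mainly through these cells. The 24 are not a sample of all 38, and nothing is read from their counts against the shares of all genes. At least 20 UMIs were present in microglia for 16 of the 24, in astrocytes for 5, in oligodendrocytes for 2 and in mural cells for 13. Against microglia, 22 of 24 members were called higher in endothelial cells and 1 lower, where 24.9% and 29.5% of all genes were called higher and lower (edgeR quasi-likelihood test, adjusted p under 0.05). Against astrocytes 24 of 24 were called higher (28.9% of all genes), and against oligodendrocytes 23 of 24 (25.4%). Against mural cells 12 of 24 were called higher (8.38%).

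The median log2 fold change of the 24 members was 2.93 against microglia. The medians against astrocytes, oligodendrocytes and mural cells were 5.16, 5.38 and 1.05. The 24 passed the filter mainly through endothelial cells, so that the medians describe these members and are not set against all genes. With members at 0 in the other type set to the bound that 3 UMIs give, the medians were 2.93, 4.74, 5.02 and 1.05.

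**Figure D2:**
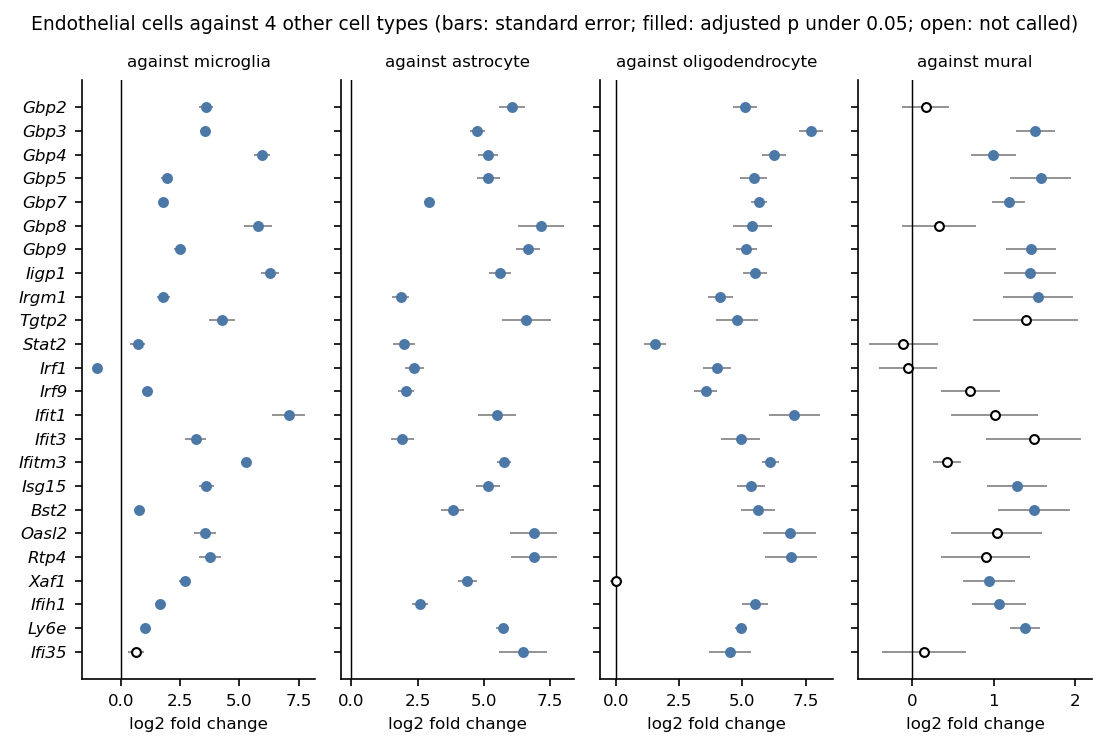
Log2 fold change of endothelial cells against 4 other cell types for the 24 members tested (point: edgeR estimate, bar: standard error, 4 libraries), with filled points for an adjusted p under 0.05. Nearly all points lie to the right of 0 against microglia, astrocytes and oligodendrocytes, with *Irf1* at -0.98 against microglia and *Xaf1* at 0.0081 against oligodendrocytes, and 12 of 24 are filled against mural cells.

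Against microglia the largest fitted differences among members with UMIs in both types were those of *Iigp1*, with a log2 fold change of 6.30 ± 0.37 (SE, edgeR adjusted p = 2.57e-64), *Gbp4*, with 5.95 ± 0.33 (SE, edgeR adjusted p = 1.2e-70), and *Gbp8*, with 5.79 ± 0.59 (SE, edgeR adjusted p = 4.1e-22). These genes had only 5, 8 and 2 UMIs in microglia, so that the size of their differences is uncertain. *Ifitm3* stood at 741 ± 158 CPM in endothelial cells and 15.2 ± 8.88 in microglia (SD, n = 4 libraries), a log2 difference of 5.26 ± 0.21 (SE, edgeR adjusted p = 6.24e-135). *Gbp2* differed by 3.59 ± 0.29, *Gbp3* by 3.55 ± 0.20 and *Isg15* by 3.61 ± 0.30 on the same scale. Differences were smaller for genes that microglia also express, namely *Gbp7* (1.78 ± 0.15), *Irgm1* (1.80 ± 0.26), *Ly6e* (1.04 ± 0.14) and *Bst2* (0.79 ± 0.24). All of these were called.

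*Ifit1*, *Ifi44*, *Tgtp1* and *Gbp6* had 0 UMIs in microglia. With 3 UMIs over the 4 libraries as the floor, *Ifit1* was at least 63.4-fold higher in endothelial cells, *Tgtp1* at least 32.0-fold, *Ifi44* at least 27.7-fold and *Gbp6* at least 12.9-fold. *Irf1* was the member called lower in endothelial cells, with a log2 fold change of -0.98 ± 0.21 (SE, edgeR adjusted p = 7.85e-06), its levels in microglia being 127, 103, 176 and 183 CPM. *Ifi35* was not called (0.64 ± 0.35, SE, edgeR adjusted p = 0.109).

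*Xaf1* stood at 126, 151, 143 and 223 CPM in oligodendrocytes, where its log2 difference from endothelial cells was 0.0081 ± 0.22 (SE, edgeR adjusted p = 0.985), but at 9.45, 0, 0 and 15.5 in astrocytes and 22.3, 22.4, 18.8 and 25.0 in microglia. *Ifit2*, the only member whose pooled level was highest in oligodendrocytes among the 5 cell types, stood at 56.2, 46.6, 37.4 and 34.3 CPM there and at 6.30, 20.8, 16.7 and 6.22 in astrocytes. The summed 38 members stood at 249, 348, 321 and 373 CPM in astrocytes and 274, 343, 293 and 502 in oligodendrocytes. Against mural cells *Gbp2* and *Gbp8* were not called, with log2 differences of 0.17 ± 0.29 (SE, edgeR adjusted p = 0.783) and 0.33 ± 0.45 (SE, edgeR adjusted p = 0.719). Those of *Stat2* and *Irf1* were -0.11 ± 0.42 (SE, edgeR adjusted p = 0.92) and -0.055 ± 0.36 (SE, edgeR adjusted p = 0.962). *Gbp2* and *Gbp8* had 46 and 19 mural UMIs. Single mural cells held 74 of 97 GTPase UMIs in the female Tg2576 library and 100 of 149 in the male wild-type one. *Gbp3*, *Iigp1* and *Ly6e* were called higher in endothelial than in mural cells, by 1.51 ± 0.24, 1.44 ± 0.32 and 1.39 ± 0.18.

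**Figure D3:**
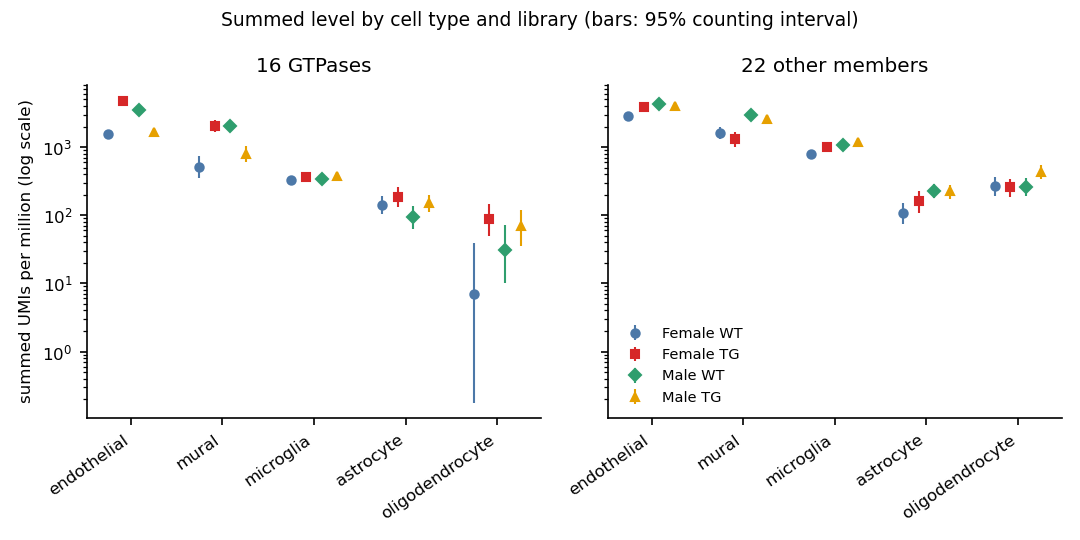
Summed level of the 16 GTPases (left) and of the 22 other members (right) by cell type and library, in CPM on a log axis, with 95% exact Poisson intervals that cover counting error only. In endothelial cells the female Tg2576 and male wild-type points of the GTPases lie above the others. In mural cells 1 cell holds most UMIs of each of these points, and in microglia the 4 points lie between 329 and 371.

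The comparison of genotypes asked whether Tg2576 and wild-type mice differed, and gave opposite directions in females and males for the GTPases of endothelial cells. Their summed level was 1577, 4740.4, 3525 and 1681 CPM. The log2 ratio of Tg2576 over wild-type was 1.59 (1.43 to 1.75) in females and -1.07 (-1.22 to -0.92) in males (95% interval from an exact binomial test of the pair of UMI sums, for counting error alone). In folds, the female Tg2576 library was 3.01 times the female wild-type one, and the male Tg2576 library was 0.477 times the male wild-type one. With 1 library per sex and genotype there is no test of either ratio, nor of the difference between the sexes.

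The roles differed in these ratios. The immunity-related GTPases stood at 262, 1455, 781 and 285 CPM, with log2 ratios of 2.47 (2.10 to 2.86) in females and -1.46 (-1.82 to -1.10) in males. The guanylate-binding proteins stood at 1315, 3286, 2744 and 1396, with ratios of 1.32 and -0.97, both with intervals on one side of 0. For the 22 other members, at 2900.1, 3867, 4234 and 4028, the ratios were 0.42 (0.29 to 0.54) and -0.072 (-0.18 to 0.041). For *Isg15* and *Usp18* together they were -0.36 (-0.89 to 0.17) and -0.37 (-0.91 to 0.16), and for the Ifit and Ifitm genes 0.46 (0.20 to 0.72) and -0.11 (-0.34 to 0.12). For the 4 transcription factors they were 0.42 (0.0012 to 0.84) and -0.74 (-1.17 to -0.31).

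In females, 33 members had at least 20 UMIs in the endothelial cells of both libraries together, and the interval lay above 0 for 16 of them, 13 of which were GTPases, where 6.3% of all genes with as many UMIs lay above 0. No member lay below 0 in females, where 5.62% of all genes did. In males, the interval lay below 0 for 14 of 31 members, 9 of them GTPases, against 4.5% of all genes, and above 0 for 1, against 6.83%. Of the 30 members with enough UMIs in both sexes, 9 lay above 0 in females and below 0 in males, where 0.817% of all genes did. These were *Gbp3*, *Gbp4*, *Gbp7*, *Gbp8*, *Iigp1*, *Igtp*, *Irgm1*, *Irgm2* and *Tgtp2*, which are 9 of the 12 GTPases with enough UMIs in both sexes. *Ly6e* was the member above 0 in both sexes, at 0.49 (0.27 to 0.72) and 0.24 (0.07 to 0.41), where 0.694% of all genes were. Since the members were chosen with earlier results of these data known, these shares are a description and no independent comparison.

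**Figure D4:**
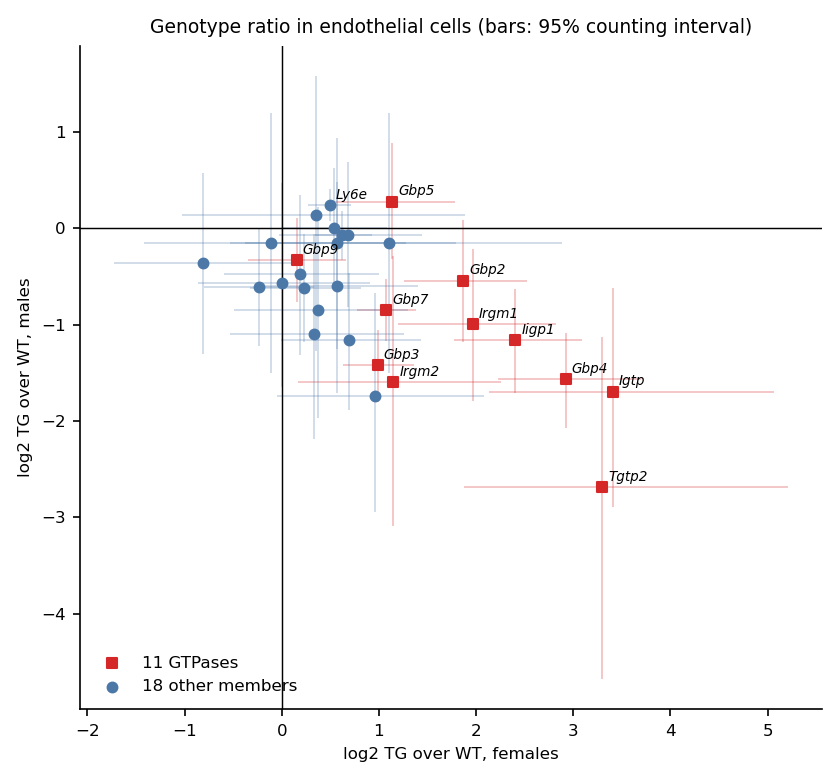
Log2 ratio of Tg2576 over wild-type in endothelial cells for the 29 members with at least 20 UMIs in each sex and UMIs in all 4 libraries, females on the x axis and males on the y axis, with 95% counting intervals as bars. Most GTPases (squares) lie in the lower right quadrant, with *Tgtp2* at 3.30 and -2.68, and the other members (circles) lie nearer to 0.

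The 9 genes differed in the size of the ratio. *Gbp4* had 18 UMIs in the female wild-type and 229 in the female Tg2576 endothelial cells, a log2 ratio of 2.92 (2.23 to 3.70), and 133 and 50 in the male ones, a ratio of -1.57 (-2.07 to -1.09). *Igtp* had 5 and 89 UMIs in females (3.40, interval 2.13 to 5.06) and 29 and 10 in males (-1.69, interval -2.90 to -0.62). *Tgtp2* had 4 and 66 in females (3.30, interval 1.87 to 5.21) and 23 and 4 in males (-2.68, interval -4.67 to -1.13). Their counts are low and the intervals wide.

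*Iigp1* had 23 and 204 UMIs in females (2.40, interval 1.77 to 3.09) and 90 and 45 in males (-1.16, interval -1.71 to -0.63). The ratios of *Irgm1* were 1.97 (1.20 to 2.82) and -0.99 (-1.80 to -0.22), and those of *Irgm2* 1.15 (0.16 to 2.26) and -1.60 (-3.09 to -0.29). *Gbp3* and *Gbp7*, with the most UMIs, had the smaller ratios of 0.99 (0.63 to 1.36) and 1.08 (0.78 to 1.39) in females, and -1.42 (-1.80 to -1.05) and -0.85 (-1.17 to -0.53) in males. *Gbp8* was at 0 in the female wild-type library, so that its 84 UMIs in the female Tg2576 library were at least 16.7-fold higher, with 3 UMIs per library as the floor. In males it had 55 and 1 UMIs, a log2 ratio of -5.94 (-11.27 to -3.40).

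*Gm12250* and *Tgtp1* had enough UMIs in females only. *Gm12250* had 1 UMI in the female wild-type and 62 in the female Tg2576 library (5.21, interval 2.67 to 10.53), and 9 and 2 in the male libraries. *Tgtp1* had 0 and 33 UMIs in females, at least 6.55-fold higher in the Tg2576 library, and 16 and 3 in males. *Gbp2* and *Gbp5* had intervals above 0 in females (1.86, interval 1.26 to 2.52, and 1.13, interval 0.53 to 1.78) and across 0 in males (-0.54, interval -1.18 to 0.085, and 0.27, interval -0.32 to 0.88). *Gbp9* spanned 0 in both sexes (0.15, interval -0.34 to 0.66, and -0.33, interval -0.76 to 0.10).

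Among the other members, intervals in males lay below 0 for *Rsad2* (-1.74, interval -2.94 to -0.67), *Irf9* (-1.16, interval -1.88 to -0.47), *Rtp4* (-1.10, interval -2.19 to -0.08), *Xaf1* (-0.62, interval -1.18 to -0.059) and *Isg15* (-0.61, interval -1.23 to -0.00076). In females *Ifitm3* (0.62, interval 0.32 to 0.93) and *Ifih1* (0.54, interval 0.014 to 1.09) lay above 0, beside *Ly6e*.

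In mural cells of the same vessels the GTPases rested on a single cell in each of a pair of libraries. A mural cell held 74 of the 97 GTPase UMIs of the female Tg2576 library, and another held 100 of the 149 of the male wild-type library. The mural GTPases stood at 515, 2046, 2018 and 792 CPM, with log2 ratios of 1.99 (1.39 to 2.63) in females and -1.35 (-1.81 to -0.91) in males. *Gbp3* and *Gbp7* were above 0 in females (2.30, interval 0.67 to 4.34, and 1.62, interval 0.51 to 2.84), which is 2 of the 4 members with at least 20 UMIs there, where 7.65% of all genes were above 0. In males 5 of 10 members were below 0, all GTPases, against 5.01% of all genes. The 22 other members stood at 1630.3, 1308, 2911 and 2549, and their intervals spanned 0 in both sexes (-0.32, interval -0.80 to 0.16, and -0.19, interval -0.48 to 0.10). Without the cell with the most GTPase UMIs in each library, an alternative chosen after seeing the data, the mural levels were 418, 511, 739.6 and 677 CPM, and the ratios were 0.29 (-0.63 to 1.21) in females and -0.13 (-0.75 to 0.49) in males, both with intervals that span 0. In endothelial cells the same step gave 1.48 (1.32 to 1.65) and -1.01 (-1.17 to -0.86). In cells thinned to 500 UMIs the mean GTPase UMIs per mural cell were 0.444, 0.774, 0.414 and 0.216. The 16 endothelial markers summed to 12562, 6625, 13704 and 14395 CPM of the mural cells, and their part in the mural GTPase UMIs was not tested.

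In microglia the summed GTPases differed little between libraries. They stood at 329, 367, 339.8 and 371 CPM, with ratios of 0.16 (-0.12 to 0.44) in females and 0.13 (-0.16 to 0.42) in males. In females *Ly6e* was above 0 (0.48, interval 0.24 to 0.71), 1 of 15 members against 6.1% of all genes. In males *Ifit2* was above 0 with 1 and 19 UMIs (4.07, interval 1.42 to 9.45), 1 of 15 against 5.92%. In astrocytes, with 157 GTPase UMIs in all, the ratios were 0.40 (-0.28 to 1.06) and 0.67 (-0.032 to 1.40).

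A genotype effect shared by both sexes, and a sex effect shared by both genotypes, were fitted with edgeR in each cell type. Each gene has 1 residual degree of freedom of its own. The fit draws the spread of a gene toward that of all genes, so that the p-values rest largely on this shared spread. For genotype, edgeR called 0 of 32 members in endothelial cells (0.0709% of all genes). An unadjusted p below 0.05 was held by 1 member, and by 303 of all 5640 genes. DESeq2 called 0 of 37 members and 0 of 18459 genes, with such a p for 0 members and 22 genes. In microglia 0 of 16 were called (0.481% of all genes), with an unadjusted p below 0.05 for 2, and for 661 of all 7492 genes. DESeq2 called 0 of 33 members and 0 of 20660 genes there, with such a p for 0 members and 41 genes. In astrocytes 0 of 2 were called (0.0565% of all genes), with an unadjusted p below 0.05 for 0, and for 390 of all 5307 genes. DESeq2 called 0 of 28 members and 2 of 18530 genes there, with such a p for 0 members and 21 genes. An effect of opposite sign in the sexes cancels in this fit, and it enlarges the spread.

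For sex, edgeR called 0 of 32 members in endothelial cells (0.248% of all genes). An unadjusted p below 0.05 was held by 3 members, and by 576 of all 5640 genes. DESeq2 called 0 of 37 members, and of 18459 genes 1 higher and 2 lower in males. Such a p was held there by 1 member and 49 genes. *Ly6e* came nearest, with a log2 difference of male minus female of 0.66 ± 0.18 (SE, edgeR adjusted p = 0.216). In microglia 1 of 16 members was called (5.87% of all genes). This was *Irf1*, higher in males by 0.62 ± 0.19 (SE, edgeR adjusted p = 0.0302). DESeq2 called 0 of 16 members, and of 8243 genes 9 higher and 8 lower in males. It gave an unadjusted p below 0.05 to 0 members and 171 genes. In astrocytes 0 of 2 were called (1.51% of all genes), with an unadjusted p below 0.05 for 0, and for 752 of all 5307 genes. DESeq2 called 0 of 28 members there, and of 18530 genes 2 higher and 3 lower in males. Such a p was held by 0 members and 81 genes.

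The calls in endothelial cells changed when single libraries were left out, in a fit with 1 factor. Each such fit has 1 library in 1 arm, which is assumed to vary like the pair in the other arm, so that these calls have no replicate check of their own. Without the male wild-type library 5 members were called for genotype, *Gbp4*, *Gbp8*, *Gm12250*, *Igtp* and *Iigp1*, all higher in Tg2576 mice (5 of 34 tested, and 0.165% of all genes). Without the male Tg2576 library 2 were called, *Gm12250* and *Igtp*, also higher (2 of 34, and 0.0327% of all genes). Without the female Tg2576 library only *Gbp8* was called, and it was lower in Tg2576 mice (1 of 32, and 0.0318% of all genes). Without the female wild-type library none was called for genotype (edgeR, 2 at an unadjusted p under 0.05), but 7 were called for sex, all lower in males (7 of 34, and 0.296% of all genes). Without the female Tg2576 library *Gbp4* and *Gbp8* were called for sex, and both were higher in males (2 of 32, and 0.254% of all genes).

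The sums above could come from many cells or from few. Each cell was thinned to 500 UMIs, which left 133, 257, 173 and 223 endothelial cells. The thinning was 1 random draw, and the spread between draws is not part of the intervals, which are too narrow for that reason. The share of cells with at least 5 UMIs of the 38 members was 11.3% (6.45 to 17.9%, 15 of 133 cells) in the female wild-type, 25.3% (20.1 to 31.1%, 65 of 257 cells) in the female Tg2576, 29.5% (22.8 to 36.9%, 51 of 173 cells) in the male wild-type and 16.6% (12.0 to 22.1%, 37 of 223 cells) in the male Tg2576 library (Clopper-Pearson 95% intervals, counting error only). Unthinned, the shares were 48.0%, 54.6%, 59.6% and 41.0%, at median depths of 1159, 983.5, 1068.5 and 734 UMIs. In thinned oligodendrocytes, which should lack most of these genes, the share was 0 of 78, 0 of 85, 0 of 76 and 0 of 98 cells, at median depths of 1534, 1651.5, 1853 and 1384 UMIs before thinning. The upper bounds of these shares of 0 were 4.62%, 4.25%, 4.74% and 3.69%.

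The GTPase UMIs were unevenly spread over the endothelial cells. The share of thinned endothelial cells without a GTPase UMI was 54.1% (45.3 to 62.8%, 72 of 133 cells), 43.2% (37.0 to 49.5%, 111 of 257 cells), 40.5% (33.1 to 48.2%, 70 of 173 cells) and 49.8% (43.0 to 56.5%, 111 of 223 cells). These intervals overlapped between all pairs of libraries. At least 3 different GTPases were found in 4.51% (1.67 to 9.56%, 6 of 133 cells), 18.7% (14.1 to 24.0%, 48 of 257 cells), 13.9% (9.10 to 19.9%, 24 of 173 cells) and 3.59% (1.56 to 6.95%, 8 of 223 cells). The highest count in 1 thinned cell was 6, 20, 19 and 4 GTPase UMIs, and the 10% of cells with the most GTPase UMIs held 44.9%, 54.3%, 53.5% and 34.8% of them.

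**Figure D5:**
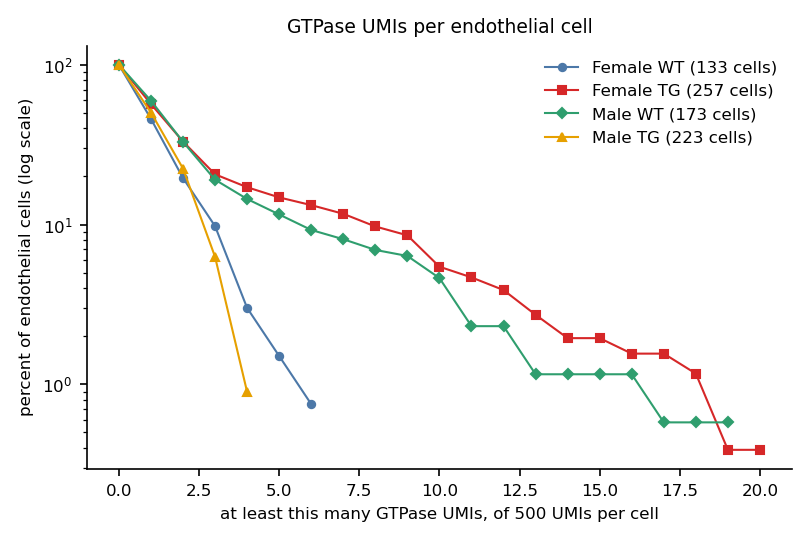
Share of endothelial cells (percent, log axis) with at least the number of GTPase UMIs given on the x axis, after thinning each cell to 500 UMIs, by library. At 5 or more UMIs stand 14.8% of the female Tg2576 and 11.6% of the male wild-type cells, against 2 of 133 female wild-type cells and 0 of 223 male Tg2576 cells.

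Without thinning, a single female Tg2576 endothelial cell held 194 of the 1975 GTPase UMIs of its library, and up to 15 of the 16 GTPases were found in 1 cell in both the female Tg2576 and the male wild-type library, against 7 and 8 in the others. Mean GTPase UMIs per thinned cell were 0.805, 2.11, 1.84 and 0.798, and those of the 22 other members were 1.47, 1.76, 1.99 and 2.06. Microglia had at least 3 different GTPases in 0 of 439, 0 of 443, 0 of 326 and 1 of 475 thinned cells.

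Values of other cell types and of cell quality stood beside these differences as follows. The 16 endothelial markers summed to 30235, 29460.1, 30086 and 33859 CPM of the endothelial cells. All 12 microglial markers had UMIs there and summed to 375, 624, 483 and 488, highest in the female Tg2576 library, and 12 of 12 mural markers summed to 839, 761, 760.3 and 848. Of the 12 T and NK cell markers, among them *Cd3d* and *Nkg7*, 0 had a UMI in the endothelial cells of any library. The median mitochondrial share of endothelial cells was 11.1%, 11.9%, 8.90% and 5.85%. The part of microglial RNA and of cell quality in the differences was not tested.

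The genes that make and read interferon were taken from lists by name. Of 10 interferon genes, only *Ifnb1* had UMIs in any barcode, with 2, 2, 3 and 0, and *Ifng*, which encodes type II interferon, had 0 UMIs in every library, so that a difference in ligand was not detectable at this depth. Of 17 receptor and signalling genes 15 were tested, and 6 were called higher and 8 lower in endothelial cells than in microglia, while 8 were called higher and 2 lower than in astrocytes. *Ifnar1* and *Ifnar2*, the chains of the type I receptor, stood at 262, 276, 392 and 454 and 258, 307, 422 and 385 CPM in endothelial cells. Their log2 differences from microglia were 2.32 ± 0.19 and 0.54 ± 0.15 (SE, edgeR adjusted p = 2.74e-34 and 0.00122). *Il10rb*, a chain of the type III and interleukin 10 receptors, stood at 254, 199, 243 and 260.5, a difference of 1.07 ± 0.19 (adjusted p = 3.78e-08). None of these 3 had the order of libraries seen in the GTPases. *Ifngr1* and *Ifngr2*, the chains of the type II receptor, were called lower in endothelial cells than in microglia. Their log2 differences were -2.91 ± 0.18 and -3.17 ± 0.29 (SE, edgeR adjusted p = 1.34e-55 and 2.41e-27). Against astrocytes neither was called (-0.14 ± 0.26 and -0.82 ± 0.42, SE, edgeR adjusted p = 0.675 and 0.086).

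Of 15 genes that sense or signal nucleic acid, 9 were tested, and 1 was called higher and 6 lower in endothelial cells than in microglia. The 1 called higher was *Ddx58*, which encodes the RNA sensor RIG-I, at 80.7, 88.8, 98.0 and 93.9 CPM (log2 difference 1.02 ± 0.27, edgeR adjusted p = 0.000452). *Samhd1*, which depletes nucleotides, stood at 96.8, 151, 196 and 72.7 and *Adar*, which edits double-stranded RNA, at 76.6, 60.0, 77.7 and 27.3, and neither was called against microglia (edgeR adjusted p = 0.253 and 0.0774). *Samhd1* had the order of libraries seen in the GTPases, and *Ddx58* and *Adar* did not.

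Of 59 other interferon-induced genes 22 were tested. Against microglia 9 were called higher in endothelial cells and 5 lower, with a median log2 fold change of 0.014. Against astrocytes 17 of 22 were called higher, against oligodendrocytes 20 of 22, and against mural cells 7 higher and 1 lower. *Slfn5* stood at 903, 727, 551 and 485 CPM, *Sp100*, a nuclear body protein, at 278, 266, 338 and 306, and *Ifitm2*, a relative of *Ifitm3*, at 109, 137, 179 and 242. Their log2 differences from microglia were 5.44 ± 0.22, 3.51 ± 0.23 and 5.32 ± 0.37 (SE, edgeR adjusted p = 1.1e-130, 2.27e-49 and 3.09e-45). *Slfn5* was highest in the female wild-type library, where the GTPases were lowest.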

How the data were processed

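Drop-seq libraries of mouse neocortex, 1 for each sex and genotype with 9 mice pooled in each, were analysed. The authors deposited UMI counts per gene and barcode, with mm10 and Seurat 3.1.4 named in the submitters' processing notes; the aligner was not given in the sources used here. Barcodes with 200 to 7000 genes and at most 20% mitochondrial UMIs were kept, since a 5% limit would have kept fewer than 50% of those passing the gene minimum. Barcodes with over 1% hemoglobin UMIs were also left out (4, all female wild-type), a filter chosen after seeing the data. Cells were normalised and clustered with Seurat 5.3.0 and sctransform 0.4.2 (19 components, resolution 0.5), leaving members and other interferon genes out of the 2500 variable genes, and clusters were named from fixed marker lists where at least 3 markers were 2-fold higher. No doublets were removed in the main analysis. Scrublet in Scanpy 1.11.5 called 89 of 4831 cells (1.84%), which were left out in an alternative.

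Within each library the UMIs of a cell type were summed, and the sums were tested with edgeR 4.0.16 (quasi-likelihood test, filterByExpr, TMM factors, Benjamini-Hochberg adjustment over all genes tested, threshold 0.05), with library as a block for cell types, and sex and genotype as terms within a type. DESeq2 1.42.0 was an alternative. The tests were checked on simulated counts. Each library is a pool and the only one of its group, so that library and group cannot be told apart. Within a cell type each gene has 1 residual degree of freedom, and the edgeR p-values rest largely on spread shared over genes. Ratios within a sex carry exact conditional binomial intervals, which cover counting error only. A symbol missing from a table counted as 0. UMIs are from 3′ ends, and levels were not compared between genes. Members with at least 20 UMIs in endothelial cells or microglia, pathway genes with the 3 highest UMI sums per list, and members on one side of 0 in both sexes are named. The type II receptor chains were named as well, after their values were seen. The members and lists were chosen with earlier results of these data known.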

Additional observations from a re-analysis of the deposited data

Results flagged for a closer look

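Results are given here where the log2 ratio of Tg2576 over wild-type lay above 0 in females and below 0 in males, each with an interval on one side of 0. The difference between the sexes was not tested, since there was 1 library per sex and genotype. In endothelial cells the ratios of the 38 members were 0.94 (0.85 to 1.04) in females and -0.44 (-0.53 to -0.35) in males, and those of the 16 GTPases 1.59 (1.43 to 1.75) and -1.07 (-1.22 to -0.92). In mural cells the ratios were 0.65 (0.30 to 0.99) and -0.56 (-0.80 to -0.33) for the 38 members and 1.99 (1.39 to 2.63) and -1.35 (-1.81 to -0.91) for the GTPases. The mural values of the GTPases rest on 1 cell in each of the higher libraries, and without the cell with the most GTPase UMIs in each library they were 0.29 (-0.63 to 1.21) and -0.13 (-0.75 to 0.49).

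Of single genes in endothelial cells, *Gbp3* stood at 0.99 in females and -1.42 in males, *Gbp4* at 2.92 and -1.57, and *Gbp7* at 1.08 and -0.85. *Iigp1* stood at 2.40 and -1.16, *Igtp* at 3.40 and -1.69, *Irgm1* at 1.97 and -0.99, *Irgm2* at 1.15 and -1.60, and *Tgtp2* at 3.30 and -2.68. *Gbp8* had no UMI in the female wild-type library, so that its value in females is the lower limit of the interval, 3.73, and in males it stood at -5.94. This limit is another bound than the fold given above, which takes 3 UMIs per library as the floor. In mural cells *Gbp3* stood at 2.30 and -1.55 and *Gbp7* at 1.62 and -1.04, where single cells held most GTPase UMIs of the higher libraries.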

How the results depend on the processing

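Of the values that answer a comparison, 187 stayed near the main value under the alternatives, 40 moved and 1 turned in direction, and the cause was not tested. Near meant a count of calls equal or within a limited factor of the main one, whatever number of members was tested. For a ratio or share it meant a value inside the main counting interval. The ratio of the 16 GTPases in endothelial cells ranged from 1.39 to 1.95 in females and from -1.20 to -0.80 in males. With at most 10% mitochondrial UMIs, 13, 14, 13 and 7 members were called higher in endothelial cells than in microglia, astrocytes, oligodendrocytes and mural cells, of 14 tested. Of 4086 genes, 1107, 1046, 972 and 281 were. Without a mitochondrial limit 15 of 16 tested were called against oligodendrocytes, and 1420 of 5919 genes. Against mural cells DESeq2 called 5 of 34 members tested, and 268 of 12138 genes. The fit without a filter on low counts called 19 of 37, and 843 of 25471 genes. Leaving out each library in turn gave 15 to 21 against microglia, 17 to 23 against astrocytes, 15 to 22 against oligodendrocytes and 6 to 12 against mural cells, and 0 to 5 for genotype and 0 to 7 for sex in endothelial cells and 0 to 1 for sex in microglia. Those fits against other cell types tested 17 to 23 members. Of 6218 to 6897 genes they called 1424 to 1549, 1661 to 1686, 1410 to 1534 and 368 to 405 higher, in the order above. For sex in endothelial cells 2 members were called without the filter (*Gm12250*, *Ly6e*) and 1 without TMM factors (*Ly6e*). All genes called there numbered 28 higher and 21 lower in males of 18459, and 52 and 22 of 5640. For sex in microglia 0 were called with at most 5% mitochondrial UMIs, at least 500 genes, DESeq2 or no filter, of 6, 14, 16 and 33 tested. All genes called there numbered 93, 146, 9 and 137 higher and 55, 132, 8 and 142 lower in males. No fit of the endothelial contrasts was made at the 5% limit, which left 3 and 10 endothelial cells in the female libraries.

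The ratio of the 38 members in female endothelial cells was 1.16 at the 10% limit and 0.77 in cells thinned to 500 UMIs, in female microglia 0.51 and in male astrocytes -0.40 at the 5% limit, and in thinned male microglia it turned to -0.0025. *Irgm2* in male endothelial cells turned to 0.33 at the 5% limit. The difference of endothelial from mural cells turned to 0.15 without the filter for *Stat2*, and to 0.19 without doublets and 0.21 without the filter for *Irf1*, and leaving out 1 library took them as high as 0.74 (lowest -0.45) and 0.24 (lowest -0.28). The share of endothelial cells with at least 5 member UMIs became 37.6%, 52.1%, 53.8% and 45.7% with at least 3 UMIs, and 48.0%, 54.6%, 59.6% and 41.0% without thinning. In female Tg2576 cells it was 40.3% at the 10% limit, 32.1% with at least 500 genes and 31.9% at resolution 1, and in male wild-type cells 20.8% and 36.9% at the 5% and 10% limits. At resolution 1 the female Tg2576 endothelial clusters held 246 and 58 cells, beside 304 in the main setting, and the cells were thinned anew. Each setting rests on 1 random thinning. The 31.9% at resolution 1 came from as many female Tg2576 cells as the main share and lay above its counting interval. The spread between such draws was not measured otherwise. The order of the female Tg2576 and male wild-type shares is therefore not settled. Without library as a block 18, 19, 18 and 10 of 19 members tested were called higher in endothelial cells than in microglia, astrocytes, oligodendrocytes and mural cells. Of 6173 genes, 1567, 1692, 1523 and 393 were. No paired analysis was possible because each group is 1 library. Depth limits the rare members, and 14 of 38 did not pass the filter on low counts.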

Other observations

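In endothelial cells, among 4898 genes with enough UMIs in both sexes, 40 had a log2 ratio of Tg2576 over wild-type that lay above 0 in females and below 0 in males. These held 9 of 30 members, 2 of 22 other interferon-induced genes and 22 of 4824 genes in no list. They also held 7 of 8 genes of a list used only to leave genes out of the variable genes. All 7 are MHC class I genes, and this list was singled out here after its values were seen. *B2m*, the light chain of MHC class I, stood at 1105, 2628, 2244 and 1490.2 CPM in the female wild-type, female Tg2576, male wild-type and male Tg2576 libraries. The heavy chains *H2-D1* and *H2-K1* stood at 698, 1371, 1301 and 969 and at 323, 787, 729.9 and 506, and *H2-Q4*, *H2-Q6*, *H2-Q7* and *H2-T23* were the others. *H2-Q6* had 1, 39, 22 and 3 UMIs. Near-identical H2 genes may share reads, so that their counts are uncertain. The 2 of 22 were *Psmb8* and *Psmb9*, subunits of the immunoproteasome, which stood at 84.7, 180.0, 189 and 106 and at 52.4, 182, 128 and 69.7. *Psmb10*, *Tap1* and *Tapbp*, of the same list, were not among the 40. The difference between the sexes was not tested for any of these genes. The 22 genes in no list include 6 named as ribosomal protein genes and the mitochondrial ribosomal RNA *mt-Rnr2*, at 96194, 101920, 74327 and 48604. They also include *Gkn3* (153, 497, 659 and 454) and *Edn1* (407, 679, 777 and 588). At resolution 1 both were leading genes of an endothelial cluster with 22, 58, 36 and 34 cells, beside 125, 246, 162 and 276 in the larger one. The part of such a mix of endothelial cells in the GTPase differences was not tested. With members and other interferon genes kept among the variable genes, a separate endothelial cluster of 61 cells formed. It held 0, 40, 19 and 2 cells in the order of libraries above, beside 148, 265, 179 and 308 in the larger one. Its leading genes were all GTPases, among them *Gbp8*, *Tgtp2* and *Gm12250*. The members were not left out of that clustering, so that this cluster is no independent finding.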
